A study of Mus musculus with 2 samples.

Results

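Naive and central memory CD4+ T cells circulate between blood and lymphoid organs, and a small set of genes marks that state. The 9 genes described here were taken from a list of naive and lymphoid recirculation genes, by name and not by their values: *Klf2*, *S1pr1*, *Ccr7*, *Il7r*, *Lef1*, *Tcf7*, *Satb1*, *Dapl1* and *Igfbp4*. All 9 were found among the 28009 genes listed for both libraries. The list was drawn up with earlier results of these data known.

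Both libraries were made with the 10X technology from CD4+ T cells sorted for the green reporter of *Il10*, *Foxp3*+ cells included, 1 from the spleen and 1 from the small intestine. The mice were IL-10 eGFP, *Foxp3* mRFP double reporters of 8 to 16 weeks that had received anti-CD3, which triggers the T cell receptor complex, as 2 injections of 15 µg on day 0 and day 2, with the organs taken 4 h after the later one. Every cell of both groups therefore came from a treated animal, no untreated cells were included, and the number of mice behind a library is not given. After filtering, 1468 splenic cells with a median of 5398 unique molecular identifiers (UMIs, each counting 1 captured RNA molecule) and 1277 intestinal cells with a median of 3696 UMIs were kept. No barcode was shared by the libraries. *Cd3e* (554 and 851 CPM) and *Cd4* (208 and 399 CPM) were present in spleen and intestine, but the intestinal library, although sorted as CD4+, also held a cluster of 148 cells led by *Cd8a* and *Cd8b1*. As each tissue had 1 library, no test between tissues, clusters or groups of cells was made. Levels are in CPM, the UMIs of a gene per 1000000 UMIs of the same cells, bounds in brackets are 95% intervals, and these cover counting error only.

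*Klf2* is a transcription factor of quiescent T cells that drives transcription of *S1pr1*, the receptor for sphingosine 1-phosphate by which T cells leave lymphoid tissue. *Ccr7* is the chemokine receptor for entry into lymph nodes and the T cell zone of the spleen, and *Il7r* encodes the receptor chain through which interleukin 7 keeps naive and memory T cells alive. *Lef1* and *Tcf7* encode related HMG-box factors of naive and stem-like T cells, and *Satb1* encodes a chromatin organiser of thymocytes and peripheral T cells. *Dapl1* and *Igfbp4* are transcripts that are abundant in naive T cells. Activated cells that settle in the intestinal wall generally lower the receptors for exit and lymph node entry.

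Of the 9 genes, 7 had at least 1 promoter window of 300 bases in RefSeq (build GRCm38.p6), 250 before and 50 after the start of a transcript. These windows were searched on both strands for GTAAACA, a core of FOXO sites, for CACCC, a core of KLF sites, and for CTTTGA, a core of TCF/LEF sites. The 7 genes had 15 windows, some of which overlap. GTAAACA was found in 2 of the 15, 1 of *Dapl1* and 1 of *Tcf7*, and in 3.65% of the 32851 windows of all genes. CACCC was found in 12 of the 15, from *Igfbp4*, *Klf2*, *Lef1*, *Satb1* and *Tcf7*, and in 57.5% of all windows. CTTTGA was found in 1 of the 15, of *Lef1*, and in 16% of all windows. The sequences of *Dapl1* (chr2:59484403-59484652, + strand) and *Igfbp4* (chr11:99040994-99041243, + strand) are shown because these are the members with no UMI in the intestine and the pair with the highest co-detection ratio. That of *Tcf7* (chr11:52282576-52282605, - strand) holds the other GTAAACA and lies over one of the transcript starts inside the gene. Capitals mark GTAAACA in *Dapl1* and *Tcf7* and, in *Igfbp4*, CACCC read on the other strand.
Dapl1: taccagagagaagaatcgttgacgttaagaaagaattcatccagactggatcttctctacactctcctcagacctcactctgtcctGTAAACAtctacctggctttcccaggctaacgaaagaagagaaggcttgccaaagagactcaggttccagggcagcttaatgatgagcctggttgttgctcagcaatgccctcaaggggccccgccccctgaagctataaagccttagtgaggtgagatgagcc
Igfbp4: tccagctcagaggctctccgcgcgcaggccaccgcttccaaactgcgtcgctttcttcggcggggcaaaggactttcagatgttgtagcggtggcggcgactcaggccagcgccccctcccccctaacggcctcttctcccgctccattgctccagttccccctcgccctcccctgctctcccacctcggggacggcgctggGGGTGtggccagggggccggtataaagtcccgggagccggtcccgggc
Tcf7: cctttataggaGTAAACAgacccccgccat
In *Dapl1* the match began 164 bases before the transcript start and in *Igfbp4* 48 bases before it. A match of letters describes the sequence and does not show that a factor binds there.

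The first comparison was that of the tissues. Of the 9 genes, 8 were at least 2-fold higher in the spleen, against 13.6% of the 9032 genes with at least 50 UMIs, and none was at least 2-fold lower, against 10.4% of these genes. The exception was *Satb1*, which was somewhat higher in the intestine. The median log2 ratio of spleen over intestine was 3.39 over the members, with genes at 0 placed at their bound, and 0.02 over all genes tested.

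*Klf2* (ENSMUSG00000055148, chromosome 8, 72319033 to 72321656, + strand) had 270.3 CPM (259.8 to 281) in the spleen and 25.8 (21.6 to 30.7) in the small intestine. The splenic level was 10.5-fold higher (8.77 to 12.6). *S1pr1* (ENSMUSG00000045092, chromosome 3, 115710433 to 115715072, - strand) had 55.2 CPM (50.5 to 60.2) against 4.17 (2.58 to 6.38), a 13.2-fold difference (8.56 to 21.6). The regulator and the exit receptor were thus low in the intestine by ratios whose intervals overlapped. Among intestinal cells, 3 held 21 of the 130 *Klf2* UMIs, and the one with most *Klf2* UMIs, 9, also had 2 UMIs of the B cell gene *Cd79a*, 40 of *Cd74* and none of *Cd3e*. When the 63 intestinal and 130 splenic cells with a UMI of any of 5 B cell markers, *Cd79a*, *Cd79b* and *Cd74* among them, were left out, a step added after seeing the data, intestinal *Klf2* was at 20.6 CPM and the log2 ratio was 3.80 in place of 3.39. All 8 genes stayed at least 2-fold higher in the spleen under this step.

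*Ccr7* (ENSMUSG00000037944, chromosome 11, 99144196 to 99155077, - strand) had 86.5 CPM (80.6 to 92.8) in the spleen and 10.9 (8.23 to 14.2) in the intestine, 7.92-fold lower (6.02 to 10.6). The intestinal UMIs of this receptor were concentrated in few cells: 3 cells of cluster 1 (led by *Ccl4*, *Ccl3* and *Plac8*) held 31 of 55, and without them the level was 4.79 CPM. The highest of the 3, with 18 *Ccr7* UMIs among 9106, also had 413 UMIs of *Gzma*, 63 of *Ccl5*, 20 of *Il10* and 4 of *Cd3e*, and none of *Cd79a* or *Cd74*. In the spleen the 3 highest cells held 33 of 792 *Ccr7* UMIs.

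*Il7r* (ENSMUSG00000003882, chromosome 15, 9505788 to 9530176, - strand) had 133 CPM (126 to 141) in the spleen and 62.4 (55.7 to 69.7) in the intestine. Its 2.13-fold difference (1.88 to 2.42) was the smallest of the 8, and its interval reached below 2. Cells with a UMI of *Cd8a* or *Cd8b1* were found in both tissues. *Cd8a* had 1009 UMIs in the intestine and none in the spleen, while *Cd8b1* had 767 and 126, the latter in 105 splenic cells. Leaving such cells out kept 1073 of 1277 intestinal and 1363 of 1468 splenic cells. When such cells were left out, the log2 ratio of *Il7r* was 0.94 in place of 1.09, just under the 2-fold threshold, and the other 7 members stayed above it.

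The naive-state factors differed from each other. *Lef1* (ENSMUSG00000027985, chromosome 3, 131110471 to 131224356, + strand) had 75.3 CPM (69.8 to 81.1) in the spleen and 17.9 (14.4 to 22.0) in the intestine, a 4.21-fold difference (3.38 to 5.30). *Tcf7* (ENSMUSG00000000782, chromosome 11, 52252371 to 52283014, - strand) had 132 CPM (125 to 139.6) and 9.34 (6.86 to 12.4), a 14.1-fold difference (10.6 to 19.3). The intervals of these ratios did not overlap, so the sizes of the tissue difference were not the same for this pair. *Satb1* (ENSMUSG00000023927, chromosome 17, 51736187 to 51833290, - strand) had 298 CPM (287 to 309.7) in the spleen and 396 (378 to 413) in the intestine, where it was 1.33-fold higher. Its log2 ratio of spleen over intestine, -0.41 (-0.49 to -0.32), lay at the 28.4th percentile of all genes tested, while those of *Klf2*, *S1pr1*, *Ccr7*, *Lef1* and *Tcf7* lay between the 96.6th and the 99.5th.

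The naive-associated transcripts were at 0 UMIs in all 1277 intestinal cells. *Dapl1* (ENSMUSG00000026989, chromosome 2, 59484653 to 59505020, + strand) had 643 splenic UMIs, or 70.3 CPM (64.9 to 75.9). Set against a floor of 3 UMIs in the intestinal library, which was 0.596 CPM, it was at least 118-fold higher in the spleen. This floor takes the splenic count as exact, and the 95% interval from both counts began at 95.6-fold. *Igfbp4* (ENSMUSG00000017493, chromosome 11, 99041244 to 99054392, + strand) had 144 splenic UMIs, or 15.7 CPM (13.3 to 18.5), and was at least 26.4-fold higher by the same floor, with an interval that began at 21.2-fold.

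**Figure D1:**
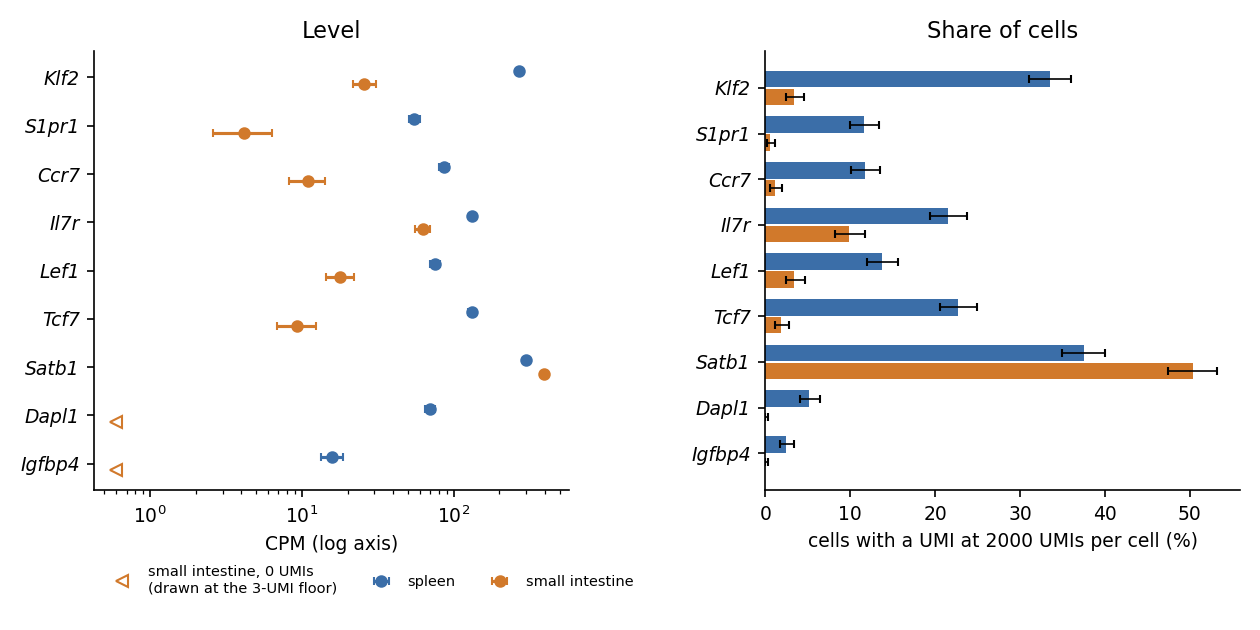
Levels of the 9 genes in CPM on a log axis (left) and the share of cells with a UMI after every cell was thinned to 2000 UMIs (right), for the splenic (blue) and intestinal (orange) library. Lines are 95% counting intervals and open triangles stand for 0 UMIs, drawn at the 3-UMI floor. All genes but *Satb1* sit higher in the spleen, and *Dapl1* and *Igfbp4* have no intestinal UMI.

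The shares of cells gave the same direction between tissues for each member. Because a deeper cell shows more genes, UMIs were drawn at random down to 2000 for each cell, which left 1445 splenic cells (median 5455 UMIs before thinning) and 1170 intestinal cells (median 3818). For 8 members the splenic share lay above the intestinal one with intervals that did not overlap, against 19.1% of all genes tested, and for *Satb1* it lay below, against 15.7%. *Klf2* was found in 33.5% (31.1 to 36) of splenic and 3.33% (2.38 to 4.53) of intestinal cells. *S1pr1* was found in 11.6% (10.0 to 13.4) and 0.513% (0.188 to 1.11), and *Ccr7* in 11.7% (10.1 to 13.5) and 1.11% (0.593 to 1.89). For these trafficking genes the intervals of the tissues lay far apart. *Il7r* was found in 21.5% (19.4 to 23.7) and 9.83% (8.18 to 11.7) of cells.

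Among the factors, *Lef1* was found in 13.7% (12 to 15.6) of splenic and 3.42% (2.45 to 4.63) of intestinal cells. The shares of *Tcf7* were 22.7% (20.6 to 24.9) and 1.79% (1.11 to 2.73). *Satb1* was found in 37.5% (35 to 40.1) of splenic and 50.3% (47.4 to 53.2) of intestinal cells. As deposited, before thinning, its shares were 63.4% and 65.9%, with overlapping intervals. *Dapl1* was found in 5.12% (4.04 to 6.39) and *Igfbp4* in 2.42% (1.69 to 3.35) of splenic cells, and 0 of 1170 intestinal cells allow a share of up to 0.256% for each. Free RNA gives all cells of a library a like low share, and the lowest cluster bounds it. In intestinal cluster 5, led by the CD8 genes *Cd8a* and *Cd8b1* (median 4315 UMIs), *Klf2*, *S1pr1*, *Ccr7* and *Tcf7* were each found in 0 of 144 cells, which allows up to 2.08%. *S1pr1* and *Tcf7* were also found in 0 of the 368 cells of intestinal cluster 1, which allows up to 0.815%. The intestinal shares of *S1pr1* and *Ccr7* lay below these limits and are not by themselves told apart from such a background, while those of *Klf2* and *Tcf7* lay above the lowest such limit of each.

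The members differed in how their UMIs were spread. As deposited, the 643 splenic UMIs of *Dapl1* came from 125 cells, with up to 34 in a cell and 5.14 on average in a cell that had any. The 505 UMIs of *S1pr1* came from 347 cells, with at most 6 in a cell and 1.46 on average. For the other 7 members this average lay between 1.56 (*Lef1*) and 3.19 (*Klf2*). *Igfbp4* had 144 UMIs in 66 cells.

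The second question was how the members vary inside the spleen. Cells were grouped with a shared nearest neighbour graph made without the 9 genes and without the wider lists named below, which gave 7 clusters in the spleen and 6 in the intestine. The leading genes named for a cluster leave out the same genes. With them, the first 3 would include *Ccr7* and *Tcf7* in cluster 2 of the spleen and *Dapl1* and *Ccr7* in cluster 7. Of the 9 members, 8 had their highest splenic level in cluster 2, against 16.2% of the 8117 genes with at least 50 splenic UMIs. Cluster 2 held 263 cells (17.9% of the cells kept), was led by *Pik3ip1*, *Txnip* and *Evl*, and had the lowest median depth of the 7, 3808 UMIs. *Klf2* ranged from 699.9 CPM (651 to 751) in cluster 2 to 149.7 (125 to 177) in cluster 7, which was led by *Cnn3*, *Atad3a* and *Shmt1*. *S1pr1* ranged from 181 CPM in cluster 2 to 20.4 in cluster 6 (led by *Ccl5*, *Ccl4* and *Ccl3*), 8.85-fold. From the second place down, each cluster overlapped the next in *S1pr1*, and the step from cluster 2 to cluster 3 (65.0 CPM) was the one between neighbours without overlap.

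*Ccr7* had the widest range among the members with over 3 UMIs in every cluster, from 336 CPM (303 to 372) in cluster 2 to 6.56 (2.83 to 12.9) in cluster 5, led by *Gzmb*, *S100a4* and *Sv2c*, a 51.3-fold range. *Tcf7* ranged 29.4-fold, from 457 CPM in cluster 2 to 15.6 in cluster 5. It also stood at 255 CPM in cluster 3 (led by *Tnfsf8*, *Lpar3* and *Tbc1d4*), above the 189.9 of cluster 7. *Lef1* ranged 10.4-fold and *Il7r* 10.7-fold, from 249.96 and 251 CPM in cluster 2. For *Il7r*, however, the next clusters, cluster 1 with 199.7 CPM (led by *Socs2*, *Foxp3* and *Tnfrsf9*) and cluster 5 with 198, overlapped their neighbour in the order. *Satb1* was flattest, from 440.4 CPM in cluster 3 to 186 in cluster 5, and its clusters 3, 7, 6, 2 and 1 overlapped neighbour by neighbour.

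*Dapl1* and *Igfbp4* were nearly limited to 2 clusters. *Dapl1* had 331 CPM in cluster 2 and 172 in cluster 7, and between 1.64 and 36.8 elsewhere. *Igfbp4* had 96.4 CPM in cluster 2 and 29.0 in cluster 7, and 4 UMIs or fewer in each other cluster. At equal depth, 45 and 22 of the 74 cells with a *Dapl1* UMI and 25 and 6 of the 35 with an *Igfbp4* UMI lay in those clusters, which held 17.6% and 8.58% of the cells.

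**Figure D2:**
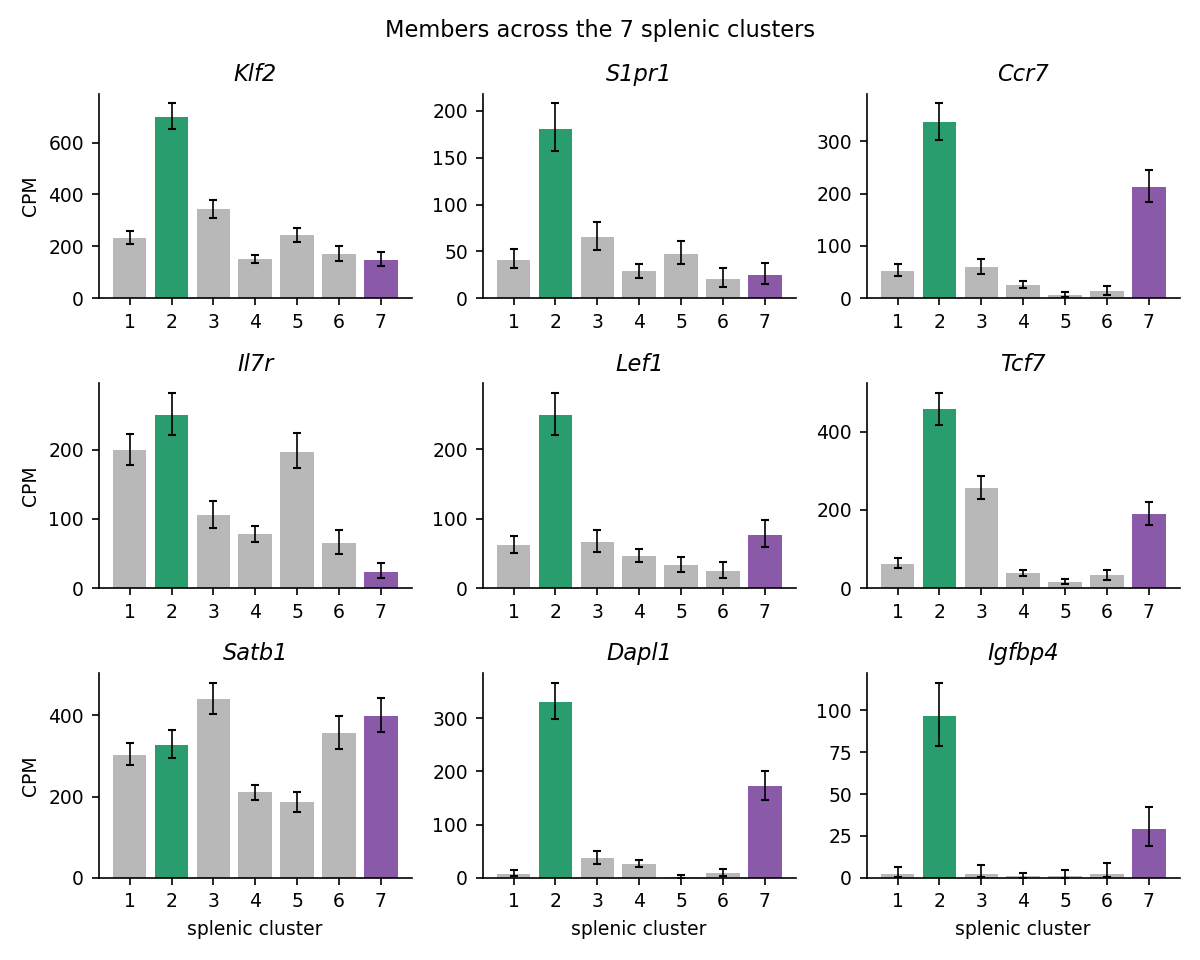
Level of each of the 9 genes, in CPM, in the 7 splenic clusters, with 95% counting intervals and with an axis of its own for each gene. Cluster 2 (green) is highest for all genes but *Satb1*, and cluster 7 (purple) is second for *Ccr7*, *Lef1*, *Dapl1* and *Igfbp4* but lowest for *Klf2* and *Il7r*.

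Cluster 7 divided the members. Of the 7 clusters it ranked 2 for *Ccr7*, *Lef1*, *Dapl1*, *Igfbp4* and *Satb1* and 3 for *Tcf7*, but 7 for *Klf2* and *Il7r* and 6 for *S1pr1*. In *Klf2*, *S1pr1*, *Lef1* and *Satb1* its interval overlapped that of a neighbour in the order. Set side by side, cluster 2 was 10.7-fold (6.86 to 17.6) above cluster 7 in *Il7r*, 7.36-fold (4.73 to 12.01) in *S1pr1* and 4.68-fold (3.89 to 5.66) in *Klf2*. The ratio was 1.58 (1.33 to 1.90) for *Ccr7*, 1.92 (1.59 to 2.34) for *Dapl1*, 2.41 (2.02 to 2.88) for *Tcf7*, 3.24 (2.48 to 4.29) for *Lef1* and 3.32 (2.14 to 5.31) for *Igfbp4*. *Satb1* was 0.821 (0.707 to 0.953) times the level of cluster 7. The interval of *Il7r*, and those of *Klf2* and *S1pr1*, genes of exit and survival, lay above those of *Ccr7*, *Dapl1* and *Tcf7*. Those of *Lef1* and *Igfbp4* overlapped that of *Klf2*, and that of *Igfbp4* also overlapped that of *S1pr1*. Of the 9 members, 6 were at least 2-fold higher in cluster 2 and 0 lower, against 16.6% and 18.1% of 8106 genes, and the median log2 ratio was 1.70 against -0.03. Of 19 measurable genes of a wider recirculation and quiescence list, 11 were at least 2-fold higher in cluster 2 and 1 lower, with a median of 1.398. *Klf3*, also a KLF factor, was 37.8-fold (10.2 to 317) and *Tsc22d3* 8.18-fold (5.90 to 11.6) higher, and *Bach2*, a repressor that keeps T cells undifferentiated, was the one that was lower, at 0.437 (0.283 to 0.665) times the level of cluster 7. The excess was not particular to such genes. Of 10 measurable genes of a tissue retention and activation list, 7 were at least 2-fold higher in cluster 2 and 0 lower, with a median of 1.26. The highest finite ratios were those of *Rgs1* at 5.70-fold (3.73 to 9.04) and *Cd44* at 3.31-fold (1.82 to 6.44). Both the 7 and the median include *Ccr9*, which had 2 UMIs in cluster 2 and 0 in cluster 7, too few for a ratio. *Cxcr6*, also among the 7, had 22 and 7 UMIs. The clusters also differed in depth, with medians of 3808 and 7076 UMIs, whose part in this was not tested. Summed B cell markers lay between 8.93 and 50.1 CPM over the splenic clusters, with 26.4 in cluster 2, where NK markers summed to 2.73. Their part in the result was not tested.

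In the intestine, *Klf2*, *S1pr1*, *Lef1*, *Tcf7* and *Il7r* had their highest level in cluster 4, which held 181 cells and was led by *Il17a*, the gene of the cytokine interleukin 17A, and *Tmem176b*. For *Klf2* the level there was 90.01 CPM (69.3 to 115), against 10.8 to 25.6 in the other clusters. *Tcf7* had 50.6 CPM (35.5 to 70.1) there, with 36 of its 47 intestinal UMIs, and between 0 and 7.37 elsewhere. *Il7r* had 188 CPM (158 to 223) there and 10.8 to 81.4 elsewhere. Summed B cell markers were also highest in cluster 4, at 381 CPM against 5.11 in the lowest cluster, and their part in these levels was not tested. *Foxp3*, the factor of regulatory T cells, gathered in the same cluster, with 31 of its 38 intestinal UMIs (43.6 CPM, against 0 to 4.61 elsewhere). When cells with a *Foxp3* UMI were left out of both tissues, the log2 ratio of spleen over intestine was 3.63 for *Klf2* and 4.17 for *S1pr1*, in place of 3.39 and 3.73, and again 8 members were at least 2-fold higher. At equal depth the share of cells with 3 or more members was 5.56% (2.57 to 10.3) in cluster 4.

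Co-detection asked whether single cells carry several of the 9 transcripts. At equal depth, 338 of 1445 splenic cells (23.4%, 21.2 to 25.7) had none of the members, 461 had 1, 328 had 2, and 318 (22.0%, 19.9 to 24.2) had 3 or more, against 19.6% from the product of the single shares, a ratio of 1.12. Cells with 4 or more made up 10.7% (9.18 to 12.4), 2.17 times the 4.93% that the product gives. The most found in a cell was 8 members. Cells with none were also more frequent than the product of shares gives (15.7%), so that the members were gathered in fewer cells. In the intestine 598 of 1170 cells had 1 member and 467 had none. There *Satb1*, the member higher in the intestine, was found in 589 cells, *Il7r* in 115 and each other member in 40 or fewer. Only 12 intestinal cells (1.03%, 0.531 to 1.78) had 3 or more, and the 0.672% that the product gives there lay within this interval.

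**Figure D3:**
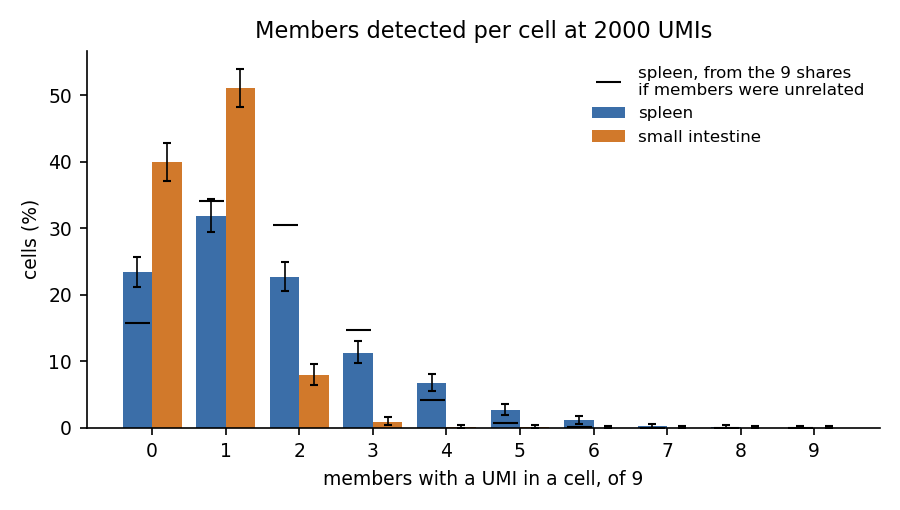
Share of cells by the number of the 9 genes with a UMI, at 2000 UMIs per cell, for spleen (blue) and small intestine (orange) with exact binomial 95% intervals. Black dashes give the splenic shares that the product of the 9 single shares predicts. The splenic bars lie above the dashes at 0 and at 4 or more, and the intestinal bars stop almost wholly at 2.

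In pairs, 34 of the 36 splenic combinations were seen in over 10 cells, and 31 of these were seen more often than the product of both shares. Over all pairs of the 5711 genes found in 35 to 542 splenic cells, the span of the members, the percentage above the product was 60.7. The median ratio of observed to product was 1.56 for the members and 1.05 for all such pairs, of which 4.05% reached the members' median. *Dapl1* and *Igfbp4* had the highest ratio, 7.25, from 13 cells with both. The product for this pair was 0.124% of the 1445 cells, so the limit of over 10 cells let it enter only at a high ratio. For genes found in few cells this limit favours high ratios. *Ccr7* with *Igfbp4* (4.64, 19 cells), *Ccr7* with *Dapl1* (3.81, 33 cells) and *Lef1* with *Dapl1* (3.16, 32 cells) followed. Of all pairs over 10 cells, 0.0321% reached a ratio of 3.

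The regulator and its target were found together at an intermediate ratio. *Klf2* and *S1pr1* shared 96 cells, 1.71 times the product, and 57.1% of the *S1pr1* cells had a *Klf2* UMI. *Lef1* and *Tcf7* shared 80 cells, 1.78 times the product, and *Ccr7* and *Tcf7* shared 77, 2.01 times. Pairs below 1 all held *Il7r*: with *Dapl1* the ratio was 0.879 (14 cells), with *Satb1* 0.934 and with *Tcf7* 0.992. *Igfbp4* and *Il7r* shared 4 cells, too few for a ratio. In the intestine 3 pairs passed 10 cells, all with *Satb1*, and their ratios were 0.646 with *Lef1*, 0.898 with *Il7r* and 0.917 with *Klf2*.

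**Figure D4:**
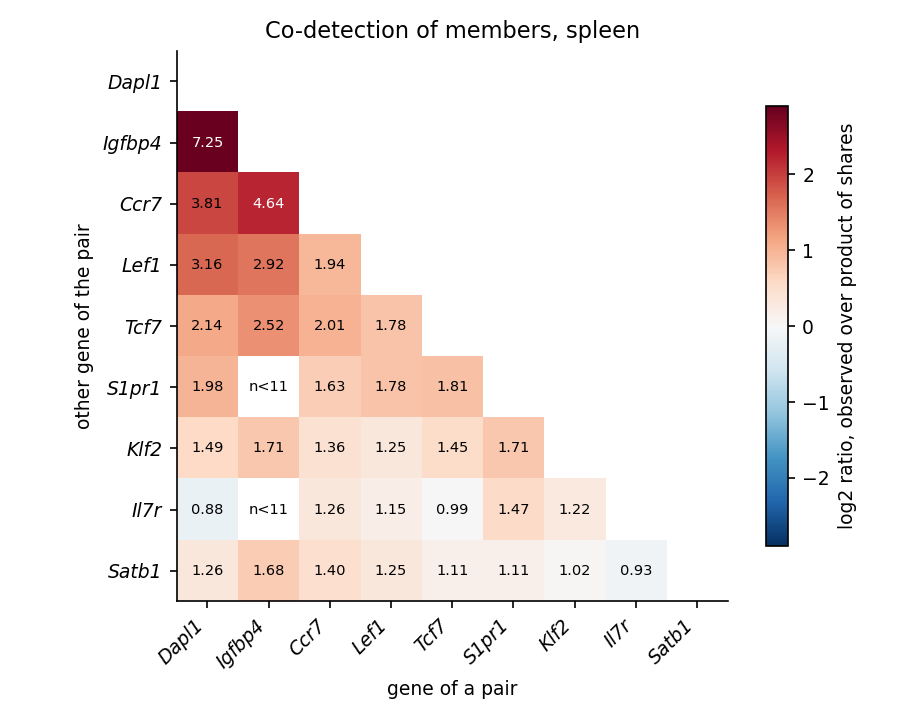
Splenic cells with a UMI of both genes of a pair over the product of the single shares, at 2000 UMIs per cell, as printed numbers, coloured on a log2 scale, with pairs in 10 cells or fewer marked n<11. The ratios fall from 7.25 for *Dapl1* with *Igfbp4*, at the top left, to values near 1 for many pairs with *Il7r* or *Satb1* at the bottom.

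Much of this co-detection followed the clusters. Of the 318 splenic cells with 3 or more members, 161 lay in cluster 2, where they were 63.4% (57.1 to 69.3) of the cells, against 24.2% (17.0 to 32.7) of cluster 7, 21.6% (16.6 to 27.3) of cluster 3 and 5.30% to 14.3% of the others. Within cluster 2 the median ratio over 33 pairs in over 10 cells was 1.09, with 24 pairs above 1 and a range of 0.726 to 1.74. In cluster 3 it was 1.15 over 11 pairs, in cluster 5 1.11 over 3 and in cluster 7 1.11 over 5. The limit of over 10 cells favours pairs with high ratios and can raise medians over so few pairs. In cluster 1 it was 0.968 over 6 pairs, of which 2 were above 1, and clusters 4 and 6 had no such pair.

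Cells with 3 or more members were then set beside cells with none, at equal depth, for genes outside the 9. Of 5400 genes, 10.7% were at least 1.5-fold higher and 24.9% at least 1.5-fold lower, and the median log2 ratio over them was -0.21. Of the 20 genes of the recirculation and quiescence list, 18 had at least 50 UMIs, and of these 9 were at least 1.5-fold higher and 0 were lower, with a median log2 ratio of 0.60. *Tsc22d3*, a glucocorticoid-induced gene of resting lymphocytes, had 63.6 CPM in cells with no member and 308 in cells with 3 or more. *Pdcd4*, an inhibitor of translation, had 81.4 and 316 CPM. Of 9 measurable genes of the tissue retention and activation list, 4 were at least 1.5-fold lower and 3 higher. Lower were *Cxcr6* (389 to 58.2 CPM), *Id2* (673 to 198), *Prdm1* (97.6 to 39.3) and *Rgs1* (274 to 168). *Cd69*, an early activation gene whose protein opposes *S1pr1*, was higher, at 173 CPM against 51.8. *Rgs2* (37.7 against 20.7) and *Cd44* (45.6 against 26.6) were the others, and their intervals included no difference. *Cd4* (222 against 241 CPM) and *Cd3e* (509 against 578) had intervals that included no difference.

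The same lists were compared between the tissues. Of the 20 recirculation genes, 6 were at least 2-fold higher in the spleen and 3 lower, against 13.6% and 10.4% of the 9032 genes tested. The median log2 ratio of the list was 0.19, against 0.02 over all genes tested. *Ly6c1* and *Ly6c2*, surface genes of circulating T cells, had 47.8 and 64.4 CPM in the spleen against 1 UMI each in the intestine. *Bach2*, *Atp1b1* and *Dgka* were also among the 6. The 3 that were lower were *Foxo1* (51.0 against 109 CPM), which encodes an activator of *Klf2* and *Il7r*, with *Btg1* (1094 against 2406) and *Tsc22d3* (107 against 389). Of 12 measurable retention genes, 8 were at least 2-fold lower in the spleen and 0 higher, against the same 10.4% and 13.6%. Their median log2 ratio was -1.97. They included *Itgae* (4.26 against 171 CPM) and *Itga1* (0.219 against 35.4), integrins of intestinal T cells, *Ccr9* (14.1 against 268), the gut homing receptor, and *Cd69* (87.5 against 286).

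The third question was how the members relate to *Il10* in the spleen. All cells had been sorted for the reporter, and as deposited 64.9% (62.3 to 67.3) of splenic cells had an *Il10* UMI and 516 cells had none. Thinning drops UMIs, so at equal depth a cell with 0 is one in which none was captured or none was drawn. At equal depth 818 cells had 0 *Il10* UMIs, 318 had 1, 140 had 2 and 169 had 3 or more, and the median depth of these groups before thinning was 5240, 5890, 5875 and 6284 UMIs. Of the 9 members, 6 were at least 1.5-fold lower in the 309 cells with 2 or more than in the cells with 0, against 6.42% of the 5408 genes with at least 50 UMIs, whose median log2 ratio was 0.07. The share of cells with 3 or more members was 29.1% (26.0 to 32.3) at 0 *Il10* UMIs, 14.5% (10.8 to 18.8) at 1, 11.4% (6.68 to 17.9) at 2 and 10.7% (6.44 to 16.3) at 3 or more. Only the group with 0 stood apart, and the other 3 overlapped.

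Among the trafficking genes, *Ccr7* had 136 CPM (118 to 155) in cells with 0 *Il10* UMIs, 34.6 with 1, 28.6 with 2 and 26.7 with 3 or more, so that the drop lay between 0 and 1. Its log2 ratio of 2 or more over 0 was -2.30 (-3.11 to -1.59). *S1pr1* had 86.2, 58.2, 39.3 and 56.3 CPM in the same groups, with a log2 ratio of -0.83 (-1.45 to -0.25). *Klf2* had 364, 309.9, 339.6 and 178 CPM, and its log2 ratio of -0.53 (-0.80 to -0.28) missed the 1.5-fold threshold in this thinning draw. It passed with thinning seeds 2 (-0.70), 4 (-0.70), 5 (-0.74) and 6 (-0.85) and without thinning (-1.15). With seed 3 (-0.47) and at 1000 UMIs per cell (-0.36) it missed. The intervals do not cover the spread between draws. *Il7r*, with 166, 189, 136 and 139 CPM, gave -0.27 (-0.64 to 0.09), an interval that includes 0.

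*Tcf7* had 208 CPM (187 to 232) at 0 *Il10* UMIs and 132, 111 and 65.2 CPM in the next groups, a log2 ratio of -1.28 (-1.73 to -0.86). *Lef1* had 109, 56.6, 39.3 and 77.1 CPM and a log2 ratio of -0.86 (-1.41 to -0.34). *Satb1* had 329, 267, 332 and 273 CPM, with a log2 ratio of -0.13 (-0.38 to 0.11) that includes 0. *Dapl1* had 99.6, 14.2, 10.7 and 32.6 CPM and a log2 ratio of -2.14 (-3.04 to -1.35). With the 5 other thinning seeds its ratio lay between -3.35 and -2.83. *Igfbp4*, with 49 UMIs at 0 and 3 UMIs at 2 or more, gave -2.62 (-4.95 to -0.99). The drop was not seen beyond counting error for *Il7r* and *Satb1*. The intervals of *Dapl1* and *Igfbp4* overlapped that of *Tcf7*, so that these drops were not ordered.

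The differences were smaller within clusters. Cells with 0 *Il10* UMIs made up most of clusters 2 and 7, with 221 and 105 cells, against 6 cells in each with 2 or more. When cells were compared within clusters only, 1 of the 9 members, *Ccr7* (log2 ratio -1.11), was at least 1.5-fold lower in cells with 2 or more *Il10* UMIs, against 6.27% of all genes in the same setting. In no single cluster did the interval of *Ccr7* lie below 0. Within clusters the log2 ratio was -0.05 for *Klf2* and -0.06 for *S1pr1*, and for *Lef1* (0.15), *Tcf7* (0.04), *Igfbp4* (0.48) and *Dapl1* (0.83) it was above 0. No interval was computed for these ratios. In cells with 2 or more *Il10* UMIs, *Igfbp4* had 3 UMIs and *Dapl1* 14, of which 11 lay in cluster 3. *Il10* was among the genes that made the clusters. With clusters made without *Il10*, a step added after seeing the data, again 1 member, *Ccr7* (-1.06), passed the threshold, and *Tcf7* was at -0.04. For the 9 members summed, the log2 ratio in single clusters lay between -0.32 and 0.27, and all 7 intervals included 0. Of the 63 values of a single member in a single cluster, 57 had a UMI, and 3 of these had an interval that did not include 0. Among so many intervals, some leave out 0 by counting error alone, and no share over all genes was set beside this count. The 3 are therefore listed without a conclusion. *Klf2* was higher with 2 or more *Il10* UMIs in cluster 3 (0.69, 0.11 to 1.25) and lower in cluster 6 (-1.92, -3.63 to -0.57). *Dapl1* was higher in cluster 3, with 11 UMIs against 1, but only 4 of the 245 cells of that cluster had any. Its interval does not cover the spread among so few cells.

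**Figure D5:**
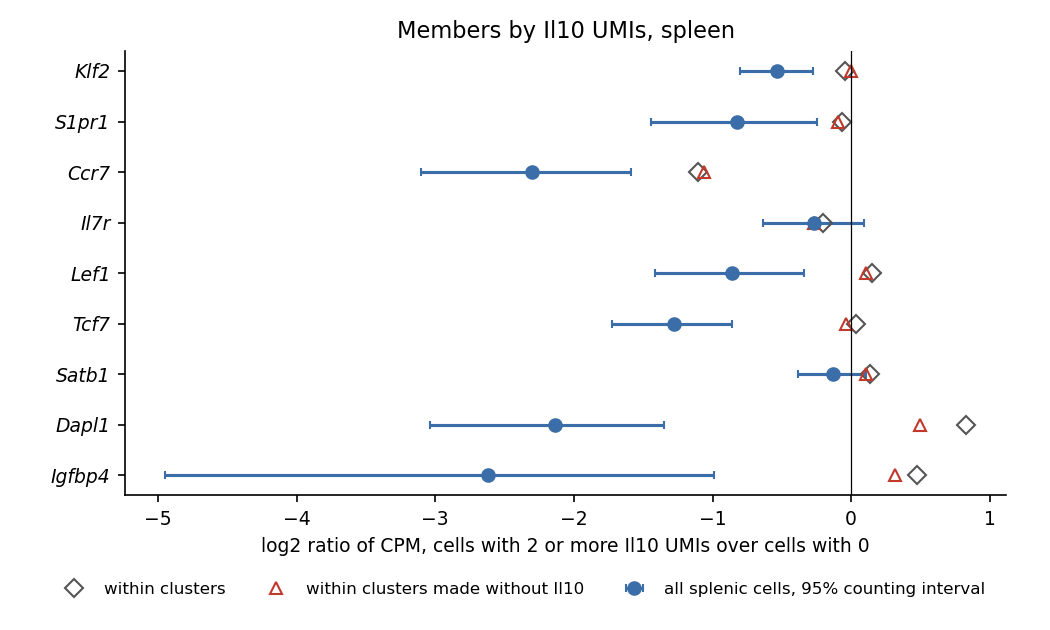
Log2 ratio of the level in splenic cells with 2 or more *Il10* UMIs over cells with 0, at 2000 UMIs per cell, for the 9 genes. Filled points with 95% counting intervals are over all cells, open diamonds are within clusters and open triangles within clusters made without *Il10*. The filled points lie left of 0 and the open symbols lie near 0 for most genes, with *Ccr7* near -1.1 and *Dapl1* and *Igfbp4* right of 0.

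In the intestine the same contrast had too few UMIs for most members. *Klf2* had 14 UMIs in 371 cells with 2 or more *Il10* UMIs and 35 in 486 cells with 0, a log2 ratio of -0.93 (-1.94 to 0.00054). With few UMIs each, *Tcf7* had 3 and 15 UMIs (-1.93, -4.36 to -0.11), *Lef1* 11 and 23 (-0.67, -1.86 to 0.42), *S1pr1* 0 and 5, and *Ccr7*, in the other direction, 11 and 7 (1.04, -0.45 to 2.65). For *Il7r* the ratio was -0.16 (-0.74 to 0.41) and for *Satb1* 0.16 (-0.05 to 0.37).

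Over the 13 clusters of both tissues, the genes outside the lists whose level followed the mean of the 9 members most closely were *Gramd4* (Pearson r of 0.97), *Rpl30*, *Rpl23a*, *Eif3e* and *Rps21*, followed by *Il6ra*, *Rpl24*, *Rpl19*, *Clec2i* and *Rps9*, down to an r of 0.945. *Il6ra* encodes the interleukin 6 receptor chain. The lowest were *Gzmb* (-0.95), encoding granzyme B, *Agfg1*, *Lrrc58*, *Tmem256* and *Lmnb1*. Among the members themselves, r with this mean was 0.97 for *Lef1*, 0.94 for *Tcf7*, 0.93 for *Ccr7* and 0.58 for *Il7r*, and 0.06 for *Satb1*. Each member is part of the mean, so its r is raised in part by construction. Over the 7 splenic clusters alone, r was 0.97, 0.92, 0.89, 0.31 and 0.47 for the same genes in this order. These are descriptions over clusters that share 2 libraries and differ in depth.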

How the data were processed

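The authors trimmed the reads with Trimmomatic, aligned them to Mm10 with Cell Ranger and counted UMIs, with versions not given in the sources used here. The counts were deposited per gene and barcode without normalization, and levels in CPM were computed here. Gene locations come from the matching GRCm38 annotation (GENCODE). The spleen had 1738 barcodes and 11103530 UMIs, the small intestine 1474 and 5693395.

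Following the study's methods, barcodes low in UMIs or genes (on a log scale) or high in mitochondrial UMIs by over 3 median absolute deviations were dropped (90 splenic, 135 intestinal), then those that cyclone (scran 1.30.0) placed in G2/M (180 and 62). The study reported more cells after filtering in each tissue, so the cells kept here are not exactly its own. Doublets called with Scrublet (scanpy 1.11.5), 4 per library, were kept. This caller marked so few cells that it cannot be taken to have found all doublets. Cells were clustered on 20 principal components with a graph of 10 neighbours (scran, Louvain method of igraph 2.1.4). The study clustered its cells by another method, and the clusters and their numbers here are not those of the study. Intervals are exact Poisson for UMIs, exact binomial for shares, and from the binomial distribution of both UMI counts for ratios. Thinning to 2000 UMIs used a fixed seed. R 4.3.3, Python 3.11.15, numpy 2.4.6 and scipy 1.17.1 were used. The ratio between tissues, its interval and the 2-fold call were tested on simulated counts. Thinning was checked on part of the splenic cells, and the other steps were not tested in this way.

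The members, lists and alternatives were chosen with earlier results of these data known. The text names the 9 members, list genes that a count turns on, and, among genes with at least 200 UMIs, the 10 genes most and 5 least like the members over clusters, by log2(CPM + 10), the 3 leading genes of a cluster and markers used as checks. A 3′ UMI count does not allow levels of different genes to be ranked, and none are. With a single library per tissue, p-values were not computed. Values of single genes of the lists and markers that are not named are not reported here.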

Additional observations from a re-analysis of the deposited data

Results flagged for a closer look

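Cells placed in G2/M had been left out of every comparison, and in the 180 splenic ones (median 8676 UMIs) *Klf2* had 345.7 CPM (318 to 375), against 270.3 (259.8 to 281) in the cells kept. None of the other 8 members was above the kept cells there beyond counting error. *S1pr1* was at 58.9 CPM against 55.2, and *Ccr7* (45.6 against 86.5), *Tcf7* (78.4 against 132), *Dapl1* (35.2 against 70.3) and *Satb1* (215 against 298) were lower.

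Cells that failed the quality filter had also been left out. All 90 splenic ones (median 2728 UMIs) had a high mitochondrial share, and in them 3 members were above the cells kept. *Lef1* had 137.2 CPM (98.9 to 185) against 75.3, *Il7r* 189.5 (144 to 245) against 133, and *Satb1* 411.6 (343 to 490.1) against 298. In the 135 intestinal cells that failed and the 62 in G2/M, no member was above the kept cells beyond counting error.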

How the results depend on the processing

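No paired analysis was possible because each tissue had 1 library. The number of members at least 2-fold higher in the spleen was 8 in every alternative but that without cells with a *Cd8a* or *Cd8b1* UMI (7), and the number with a higher share was 8 in each of its alternatives. All 81 log2 ratios between tissues kept their sign. The share of splenic cells with 3 or more members (22.0%) was 25.3% without cells with a *Foxp3* UMI (the cause was not tested) and 9.67% at 1000 UMIs per cell, and 21.5% to 24.1% with 5 other thinning seeds. The number of members lower in cells with 2 or more *Il10* UMIs (6) was 1 within clusters and 1 within clusters made without *Il10*, and 4 to 7 otherwise. Of 123 log2 ratios of this contrast, 112 kept their sign, again counting those at the limit of 10 UMIs per gene, which cannot differ. *Igfbp4* gave no ratio at 1000 UMIs and with seeds 3 and 6, where the cells with 2 or more *Il10* UMIs had none of it. *S1pr1* was at 0.047 at 1000 UMIs. Within clusters *Lef1* was at 0.15, *Tcf7* at 0.038, *Dapl1* at 0.83 and *Igfbp4* at 0.48. Within clusters made without *Il10*, *Klf2* was at 0.0019, *Lef1* at 0.11, *Dapl1* at 0.50 and *Igfbp4* at 0.32. *Satb1*, whose interval included 0, was at 0.14 and 0.11 in these settings. Fewer UMIs per cell and cells of 1 cluster only are what these alternatives change by construction. That 8 members were highest in a single splenic cluster held with 20 neighbours. It also held with the members and the lists among the clustering genes. There the members helped to make the clusters, so that setting cannot test the result. Depth limits the intestinal *Il10* contrast and any statement on *Dapl1* and *Igfbp4* in that tissue below the 3-UMI floor.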

Other observations

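Few UMIs were counted for the eGFP reporter transcript, and the reason was not tested. eGFP had 7 UMIs in the kept splenic and 6 in the kept intestinal cells, and a further entry named GFP had 0 in both. *Il10* had 4352 and 3004 UMIs, which are given beside these counts and not ranked against them. mRFP, the *Foxp3* reporter, had 108 and 9 UMIs, beside 468 and 38 of *Foxp3*.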
